A study of Mus musculus with 21 samples.

Results

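The 9 sample records described here, of 21 in the series, came from wild-type mouse embryonic stem cells (ESCs), the V6.5 line, and were chosen by their labels: wild-type genotype, total RNA or 4-thiouridine (4sU) RNA. They hold 3 cultures, WT 1, WT 2 and WT 3. Each culture gave 1 total RNA library and 1 4sU library, and each 4sU library had a first run of single-end reads and a later one of read pairs, and the counts of both were summed. The cells were grown in Knockout DMEM with 15% fetal bovine serum, LIF and the inhibitors PD0325901 and CHIR99021 (2i), which block MEK and GSK3 and hold ESCs in the naive state. Every culture received 500 µM 4sU for 30 min before TRIzol lysis, the total RNA libraries included, so there is no unlabelled control among these samples. The lysate was divided after extraction, so that the total and the 4sU library of a culture came from the same cells. The series also holds Ddx6 knockout ESCs, which were not used here.

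4sU is a uridine analogue that cells build into the RNA they make during the pulse. The labelled RNA is biotinylated and pulled down, and therefore represents young transcripts, while total RNA holds young and old ones. At a steady level, an RNA that decays slowly accumulates far beyond what is made in a short pulse and has a high ratio of total to 4sU reads, and an RNA that decays fast has a low one. The ratio is relative: it ranks genes against each other within these libraries and gives no half-life, and a slow release of the finished RNA or a read that is counted differently in the 2 kinds of library moves it as well as decay does.

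The total RNA libraries held 5724179 to 7029790 counts over genes and the summed 4sU libraries 2441639 to 2991084, so 4sU values carry the larger counting error. The 10 most counted genes took 16 to 18.5% of the 4sU counts and 5.98 to 6.37% of the total RNA counts. Spearman's rho between cultures, across genes, was 0.995 for total RNA and 0.981 to 0.982 for 4sU RNA, while total and 4sU libraries were related with rho of 0.786 to 0.801. All 10 ESC markers examined were measured, with a summed level of 4893 to 5014 CPM (counts scaled to the size of the library) in total RNA. Of 10 fibroblast feeder markers 1 passed the filter on low counts, their summed level was 6.54 to 7.48 CPM, and Col1a2, Col3a1, Dcn, Lum, Postn and Twist2 were at 0 in total RNA. Of 15 markers of the primed epiblast and of early lineages 7 passed the filter, with a summed level of 187 to 199 CPM in total RNA, most of it from Dnmt3b, a DNA methyltransferase (118, 108 and 119.9 CPM), and Afp, Cdx2 and Fgf5 were at 0.

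The question was which RNAs of unperturbed ESCs turn over quickly and which slowly. Of 13251 genes that reached 3 CPM in 3 or more libraries, 2615 (19.7%) had a higher total over 4sU ratio and 3525 (26.6%) a lower one, by edgeR's quasi-likelihood test with culture as a block, with thresholds of 0.05 on the p adjusted by Benjamini and Hochberg's method and a log2 ratio beyond 1 in either direction. These genes are called higher and lower below, and CPM values are scaled by the trimmed mean of M values (TMM). The libraries are bulk samples, in which fewer cells with an RNA and less RNA per cell cannot be told apart. The median log2 ratio was 0.04, the 25th and 75th percentiles were -1.09 and 0.81, a 3.73-fold range, and the 1st and 99th percentiles were -4.71 and 2.25. The low side reached further than the high side: 2076 genes were called with a log2 ratio below -2 and 282 with one above 2. The 11393 protein-coding genes were less asymmetric, with 2515 higher, 1929 lower and a median of 0.22. A gene seen mainly in 1 kind of library could pass the filter through it, and then leaned to that side. Only the 4sU libraries all reached 3 CPM for 1887 genes, and only the total RNA libraries for 581. Among the 10646 genes that reached 3 CPM in all libraries of both kinds 2308 were higher and 1743 lower (median 0.22).

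**Figure D1:**
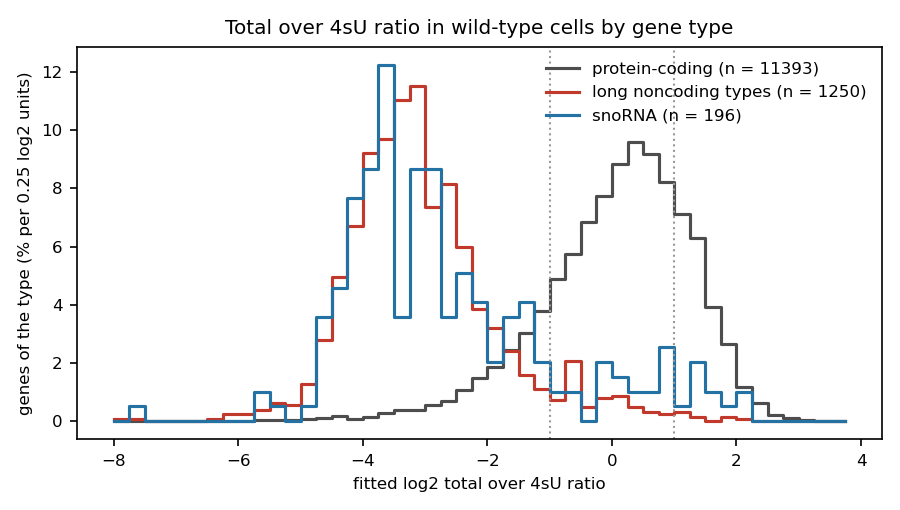
Histogram of the fitted log2 total over 4sU ratio (x axis) as a percent of the genes of each type per 0.25 log2 units (y axis). Dotted lines mark log2 ratios of -1 and 1, and 2 genes lie outside the axis. Protein-coding genes centre near their median of 0.22, and the long noncoding types (median -3.22) and snoRNA genes (median -3.11) lie mostly on the left.

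The cultures gave nearly the same ratios. The per-culture log2 ratio had the same sign in all 3 cultures for 11473 genes (86.6%) and for 6133 of the 6140 called genes, and its SD over the cultures had a median of 0.20 and a 95th percentile of 0.69. Between cultures the ratios of all genes were related with rho of 0.942 to 0.946. Scaling by library size alone moved the median of all genes by 0.13 and upper quartile scaling by -0.18, so values near 0 carry no direction, and gene lists are described relative to the median of all genes. For most lists, which hold protein-coding genes, the nearer reference is the protein-coding median of 0.22 (22.1% higher, 16.9% lower).

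**Figure D2:**
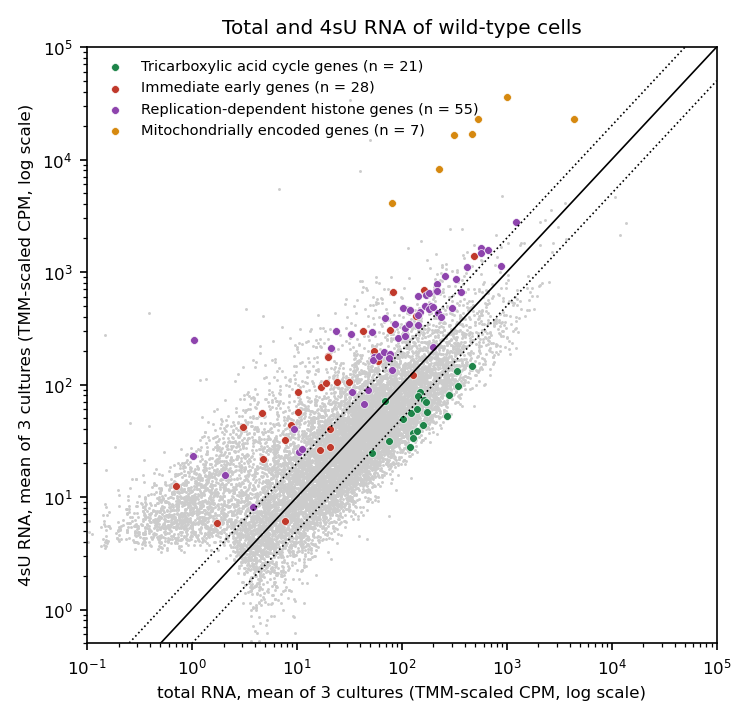
Mean TMM-scaled CPM of 3 cultures in total RNA (x axis) and 4sU RNA (y axis), both on log scales, 1 point per gene, with 4 gene lists in colour, equality as a solid line and log2 ratios of -1 and 1 as dotted lines (33 genes lie outside the axes). Tricarboxylic acid cycle genes lie on the total RNA side of equality, and nearly all immediate early, replication-dependent histone and mitochondrially encoded genes on the 4sU side.

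Rabac1, a receptor of prenylated Rab GTPases, had the highest ratio among protein-coding genes with a mean of at least 10 CPM: 42.2, 38.8 and 36.9 CPM in total RNA of WT 1, 2 and 3 against 6.48, 3.22 and 3.86 in 4sU RNA, a log2 ratio of 3.14 (SE 0.204). Galk1, the galactokinase, followed with 130, 125 and 112 CPM against 12.96, 17.9 and 12.98 (3.05, SE 0.124). For both genes every total RNA library was above every 4sU library. The next were Ech1, a peroxisomal and mitochondrial enzyme of fatty acid oxidation (2.95), Vars, the valyl-tRNA synthetase (2.92), Trappc6a, a vesicle transport factor (2.87), A2m, a protease inhibitor (2.65), Lars, the leucyl-tRNA synthetase (2.62), Atox1, a copper chaperone (2.61), Hprt, the purine salvage enzyme (2.60), and Igfbp2, a binding protein of insulin-like growth factors (2.60). Trappc6a and A2m rest on few 4sU reads, 1.296 to 4.29 and 2.51 to 6.05 CPM.

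Aminoacyl-tRNA synthetases, which charge tRNAs with their amino acids, and glycolysis genes had the highest medians of the 33 lists of genes with a shared function, 1.59 and 1.57 over all members and 1.59 and 1.75 over those with under 10% of shared sequence. Of 20 synthetase genes 19 were called higher and 0 lower (all genes: 19.7% and 26.6%). Wherever a list is given with 0 calls in a direction, DESeq2 and limma-voom also made 0, and edgeR's unadjusted p was below 0.05 in that direction, whatever the size, for 0 members unless a number is given. Vars was at 514, 466 and 487 CPM in total RNA and at 64.8, 66.6 and 62.4 in 4sU RNA. Farsa, a subunit of the phenylalanyl-tRNA synthetase, was the lowest of the list at 0.72, with 146, 146 and 145 CPM against 88.6, 88.7 and 88.7, and was not called. Their levels in total RNA thus spanned a wide range while their ratios stayed on one side.

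Energy metabolism was placed alike. In the tricarboxylic acid cycle 18 of 21 genes were higher and 0 lower (median 1.37), led by Idh2, the mitochondrial isocitrate dehydrogenase, with 279, 274 and 257 CPM against 50.5, 59.4 and 46.3 (2.37, SE 0.0850). Cs, the citrate synthase, stood at the median of the list with 330, 341 and 344 CPM against 134, 132 and 127 (1.37). In glycolysis 12 of 20 genes were higher and 1 lower (median 1.57), Ldha, the lactate dehydrogenase, being at 971, 1053 and 1020 CPM against 242, 277 and 261 (1.97). Of 74 nuclear-encoded subunits of the respiratory chain and ATP synthase 41 were higher and 6 lower (median 1.06), from Uqcrc1, a complex III core subunit (2.55), down to Atp5g2, a subunit of the ATP synthase ring (-4.56). The low members of these 2 lists share sequence with other loci, as described below, and among the 57 respiratory chain genes with little shared sequence 36 were higher and 1 lower (median 1.3).

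The proteasome, which degrades ubiquitinated proteins, had 22 of 36 genes higher and 1 lower (median 1.23). Psmd13, a subunit of the regulatory particle, was highest with 182, 179 and 184 CPM against 41.0, 40.4 and 38.9 (2.18, SE 0.0932). The chaperonin, HSP90, HSP70 and related chaperone genes, with some of the endoplasmic reticulum and mitochondria among them, were divided: 9 of 21 were higher and 3 lower (median 0.14, 0.83 with the single-end 4sU run alone and -0.37 with the paired-end run alone). Cct3, a subunit of the chaperonin that folds actin and tubulin, was at 863, 868 and 842 CPM against 217, 217 and 231 (1.95), while Hspa8, the constitutive HSP70, was lower (-1.86, 74.8% shared sequence, -0.72 and not called with the single-end run alone). Dnajb1, a stress-inducible HSP40, was at -1.03, and at -0.99 and not called without WT 1. Mitochondrial ribosomal protein genes stayed near the median of all genes, with 12 of 76 higher, 6 lower and a median of 0.23. Of 16 tubulin and actin genes 3 were higher and 2 lower (median -0.15, -0.19 relative to all genes), with Tubb3, a neuronal tubulin, highest at 1.41. The lower ones, Actg1 and Tmsb10, had 55.9% and 43.5% of shared sequence. Of all protein-coding genes 22.1% were higher and 16.9% lower, shares near those of this list.

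**Figure D3:**
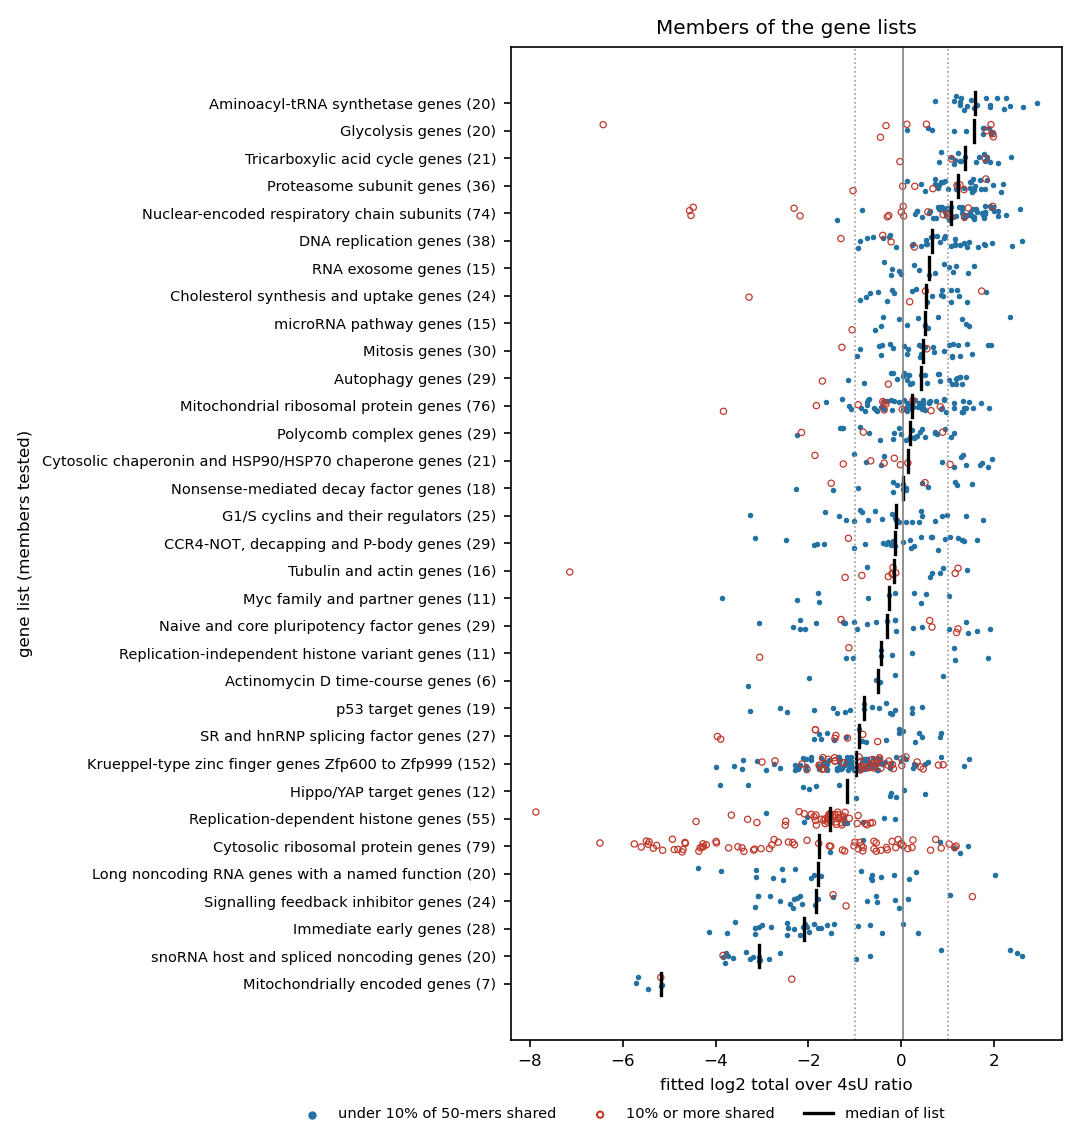
Fitted log2 total over 4sU ratio (x axis) of each tested member of 33 gene lists (y axis, members tested in brackets), ordered by the list median (black bar). Filled points share under 10% of their 50-mers with another locus and open points 10% or more, and the dotted lines mark log2 ratios of -1 and 1. Medians run from 1.59 for aminoacyl-tRNA synthetases to -5.18 for mitochondrially encoded genes.

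Of 38 DNA replication genes 14 were higher and 1 lower (median 0.66), where 22.1% of all protein-coding genes were higher and 16.9% lower (median 0.22). Pold1, the catalytic subunit of DNA polymerase delta, was at 225, 218 and 200 CPM in total RNA against 45.4, 28.3 and 34.4 (2.59), and Rpa1, of the single-strand binding complex, had a log2 ratio of 2.39. Of 30 mitosis genes 10 were higher and 1 lower (median 0.46), with Espl1, the separase that cuts cohesin, highest at 1.93. The lower member in each list, Pcna, the sliding clamp (-1.30), and Ccnb1, cyclin B1 (-1.28), had 31.8% and 42.1% of shared sequence and were not called with the single-end 4sU run alone (-0.87 and -0.59). The cyclins and regulators of the G1/S transition, 25 genes, had 2 higher and 5 lower (median -0.12, -0.15 relative to all genes). They ran from Ccnd3, cyclin D3 (1.76), and Cdk4 (1.39) to Ccne2, cyclin E2 (-1.64), and Cdkn1a, the p21 inhibitor (-3.26).

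Cholesterol synthesis and uptake, 24 genes, had 7 higher and 1 lower (median 0.53). The lower one was Idi1 (-3.28, 21.3% shared sequence), on 2.21 to 3.56 CPM of total RNA. Among the 20 genes with little shared sequence 6 were higher (median 0.60). Pmvk, the phosphomevalonate kinase, was among the higher ones (1.82), whereas Insig1, which retains the SREBP processing complex, lay below the median of all genes (-0.88) and was not called. Autophagy had 9 of 29 higher and 2 lower (median 0.43), with Atg7, the E1-like enzyme, at 1.39 and Map1lc3b, an LC3 precursor, at -1.70. For comparison, 22.1% of all protein-coding genes were higher and 16.9% lower (median 0.22).

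Immediate early genes, which are transcribed within minutes of a stimulus and whose mRNAs are known for rapid decay, were at the other end. Of 28 tested 23 were lower and 0 higher, with a median log2 ratio of -2.09. Of the 25 that reached 3 CPM in all libraries of both kinds 20 were lower and 0 higher (median -2.07). Fos, the AP-1 subunit, was at 4.50, 5.02 and 4.38 CPM in total RNA and 54.9, 45.8 and 66.3 in 4sU RNA (-3.58, SE 0.167). Jun, its partner, was at 9.67, 11.1 and 9.71 CPM against 93.7, 94.1 and 71.5 (-3.07). Zfp36, tristetraprolin, which itself binds AU-rich elements and triggers decay, was at 3.50, 2.36 and 3.42 CPM against 34.6, 37.9 and 52.6 (-3.76). In all 3 genes every total RNA value was far below every 4sU value. Egr1, a zinc finger factor, was the lowest of the list (-4.15, SE 0.379) on 0.295 to 1.00 CPM of total RNA. It passed the filter through its 4sU libraries alone. Dusp1, a MAP kinase phosphatase, was at -3.16, and Maff (0.35) was the highest member and was not called.

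Genes that dampen signalling were placed similarly: of 24 feedback inhibitors 16 were lower and 2 higher (median -1.83). Of the 20 at 3 CPM in all libraries of both kinds 13 were lower and 2 higher (median -1.64). Spry2, an inhibitor of receptor tyrosine kinase signalling, was at 43.5, 46.2 and 52.95 CPM in total RNA and 380.2, 358 and 469.7 in 4sU RNA (-3.08, SE 0.0753). The genes of the ID proteins, which inhibit bHLH factors, were all lower: Id3 (-3.15) had the lowest ratio of the list, and Id2 (-3.09), Id4 (-2.33) and Id1 (-2.31) were close to it. Dusp6, a phosphatase of ERK, was at -2.82 and Smad7, which blocks TGF-beta receptors, at -2.40. The higher ones were Lefty2, a secreted Nodal antagonist (1.53, 11.6% shared sequence), and Notum, a secreted Wnt antagonist (1.04, and 0.95 and not called without WT 2). Lefty1, the neighbouring paralog of Lefty2, was lower (-1.19, 17.9% shared sequence).

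Myc, the growth-promoting factor, was at 0.333, 1.03 and 1.64 CPM in total RNA against 12.1, 11.4 and 22.1 in 4sU RNA (-3.87, SE 0.326). Mycn, the family member with more RNA in these cells, was at 87.0, 92.7 and 92.2 CPM against 308, 303 and 329 (-1.79). Of 11 genes of the Myc family and its partners 4 were lower and 1, the partner Mga (1.03), was higher (median -0.27). Myc passed the filter through its 4sU libraries alone. Of the 9 genes at 3 CPM in all libraries of both kinds 2 were lower and 1 higher (median -0.13). The targets of the Hippo effector YAP had 6 of 12 lower and 0 higher (1 by the unadjusted p, median -1.17). Ccn2, a matricellular protein, was at 39.3, 47.4 and 53.6 CPM against 688, 696 and 709 (-3.90, SE 0.0714) and Ccn1, its relative, at 56.0, 58.8 and 58.0 against 576, 582 and 559 (-3.31). Amotl2 (-1.99) and the kinase Lats2 (-1.35), which restrain YAP, were lower as well. Of 19 p53 targets 8 were lower and 0 higher (2 by the unadjusted p, median -0.80), from Cdkn1a, with 42.3, 55.4 and 62.0 CPM against 512, 473 and 551 (-3.26, SE 0.0724), and Plk2, a stress-induced kinase (-2.61), to Bax, the apoptosis effector (0.45, not called).

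Pluripotency factors lay on both sides of the ratio, as all protein-coding genes did (22.1% higher, 16.9% lower, median 0.22). Of 29 genes 11 were lower, 7 higher and 11 not called (median -0.30, or -0.64 for the 24 with little shared sequence). Pou5f1, which encodes OCT4, had the highest ratio with 734, 706 and 725 CPM in total RNA and 196, 191 and 193 in 4sU RNA (1.90, SE 0.0631, adjusted p = 1.65e-194 by edgeR). Sox2, which binds DNA together with OCT4, was at 445.0, 401 and 417 CPM against 1485, 1469 and 1569 (-1.84, SE 0.0608, adjusted p = 9.9e-197 by edgeR). In total RNA Pou5f1 was above Sox2 in every culture, and in 4sU RNA Sox2 was above Pou5f1 in every culture. Nanog was at 561, 561 and 587 CPM against 922, 858 and 1085 (-0.74) and Esrrb at 489.5, 463 and 506 against 684, 707 and 729 (-0.54), and neither passed the size threshold.

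The 3 Krüppel-like factors of the list were lower. Klf5 was the lowest pluripotency gene with 54.0, 61.5 and 76.8 CPM in total RNA against 475, 528 and 602 in 4sU RNA (-3.06, SE 0.0705). Klf4 had 229, 245 and 254.8 CPM against 1094, 1114 and 1099 (-2.18), and Klf2 160.0, 164 and 165 against 655, 658 and 743 (-2.07). Each total RNA value of the 3 genes was less than every 4sU value. Tbx3 (-2.18) lay beside them. Besides Pou5f1 the higher group held Tcl1, an AKT coactivator (1.62), Trim28, the corepressor of zinc finger proteins (2104, 2046 and 2046 CPM against 786, 744 and 766, 1.43), and Lin28a, an RNA-binding protein that blocks let-7 maturation (1.40).

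**Figure D4:**
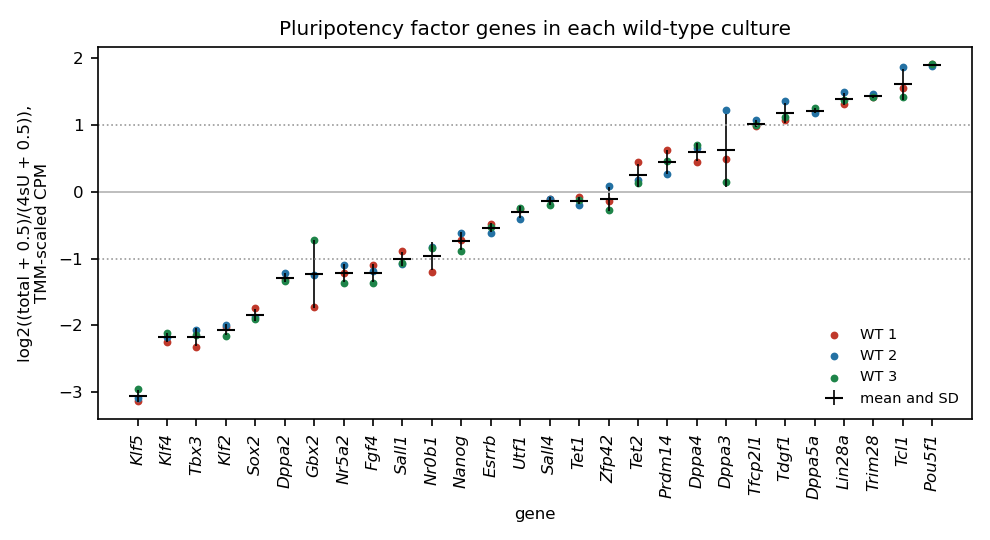
Per-culture log2 total over 4sU ratio (y axis, with 0.5 CPM added to each value) of pluripotency factor genes (x axis), 1 colour per culture, with the mean and SD of 3 cultures. The genes run from Klf5 to Pou5f1, and the 3 cultures of a gene lie close together except for Gbx2 and Dppa3.

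Of 152 zinc finger genes picked by symbol, Zfp600 to Zfp999, 75 were lower and 2 higher (median -0.97). Of the 144 at 3 CPM in all libraries of both kinds 67 were lower and 2 higher (median -0.9). The list was not picked by domain. Zfp703 was the lowest at -3.99 (SE 0.398), on 0.590 to 0.684 CPM of total RNA against 9.07 to 12.6 in 4sU RNA, and Zfp692 the highest at 1.46. Polycomb genes, whose complexes keep developmental genes silent, had 2 of 29 higher and 5 lower (median 0.18). Of all protein-coding genes 22.1% were higher and 16.9% lower (median 0.22). Ezh2, the H3K27 methyltransferase, was higher (1.07) and Rybp, a subunit of the variant PRC1 complex, was lower (-2.25).

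Splicing factors of the SR and hnRNP families, many of which carry unproductive exons that regulate their own level, had 13 of 27 lower and 0 higher (5 by the unadjusted p, median -0.92). Among the 18 with little shared sequence 6 were lower (median -0.55). Srsf2 was at 342, 384 and 440.0 CPM in total RNA against 1383, 1330 and 1270 in 4sU RNA (-1.78), and Srsf9 was the highest member at 0.86. Hnrnpa1 was at -3.96 with 46.4% of shared sequence (-2.89 with the single-end 4sU run alone and -4.81 with the paired-end run alone).

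The decay machinery as a whole lay on both sides, as all protein-coding genes did (22.1% higher, 16.9% lower, median 0.22). Of 29 genes of the CCR4-NOT deadenylase, decapping and P-bodies 5 were higher and 7 lower (median -0.14, -0.18 relative to all genes). Cnot1, the scaffold of CCR4-NOT, was higher (1.62), while the antiproliferative proteins that bind the deadenylase, Btg1 with 21.3, 17.3 and 21.2 CPM against 166, 181 and 183 (-3.15) and Tob1 (-2.49), were lower. Ddx6, the helicase whose loss the series studies, was not called (0.42). Of 15 RNA exosome genes 5 were higher and 0 lower (3 by the unadjusted p, median 0.59), the helicase gene Skiv2l being highest (1.57). Of 18 nonsense-mediated decay genes 3 were higher and 3 lower (median 0.04), and the paralogous termination factors Gspt1 (1.53) and Gspt2 (-2.27) were on opposite sides. In the microRNA pathway 4 of 15 genes were higher and 1 lower (median 0.50). Of the 13 at 3 CPM in all libraries of both kinds 3 were higher and 1 lower (median 0.36). Prkra, a partner of Dicer, was at 2.34 (3.23 without WT 1) on few 4sU reads, 4.75, 1.43 and 1.05 CPM. Xpo5, the exporter of hairpin precursors, was at 1.46 and Dicer1 at 1.31. Tarbp2, the other Dicer partner, was at -1.06 with 49.0% of shared sequence. It was not called without WT 1 (-0.99) or WT 2 (-0.97).

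Replication-dependent histone mRNAs end in a stem-loop in place of a poly(A) tail and are destroyed when S phase ends. Of 55 tested genes 46 were lower and 0 higher (median -1.53). That median lay near the one of all 309 single-exon protein-coding genes (-1.47, 67.3% lower, 0.324% higher). Whether the histone ratios go with exon number was not tested. Of the 51 that reached 3 CPM in all libraries of both kinds 42 were lower and 0 higher (median -1.52). Hist1h1b, a linker histone gene with no shared sequence, was at 538, 579.5 and 588 CPM in total RNA against 1532, 1671 and 1678 in 4sU RNA (-1.52). Among the 10 genes with little shared sequence 7 were lower and 0 higher (median -1.24), and Hist2h2be was the lowest of these at -2.91. The 240 single-exon genes with little shared sequence had a median of -1.42. Hist1h4n was at 1.00, 1.18 and 0.958 CPM against 244, 226 and 279 (-7.87) with 85.6% of shared sequence, and its log2 ratio was -2.23 with the single-end 4sU run alone and -9.17 with the paired-end run alone. The variants that are made throughout the cell cycle had 3 of 11 higher and 4 lower (median -0.44): H2afy, macroH2A, was higher (1.87) and H2afz was lower (-3.05, 69.6% shared).

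Part of the low side coincided with sequence that a gene shares with other loci, and these genes are uncertain. Only uniquely mapped reads had been counted, so a read from a gene with processed pseudogenes or close paralogs can be lost, and a longer read pair less often than a single read of 50 bases. The share of a gene's 50-base stretches that occur in the transcripts of another annotated locus was computed from the Gencode M21 transcripts. Of 8092 protein-coding genes with no such stretch 24.4% were higher and 13.8% lower (median 0.32), and of 218 with at least 50% of shared stretches 4.59% were higher and 61.9% lower (median -1.52). The median of the latter was -0.84 with the single-end 4sU run alone and -1.92 with the paired-end run alone, whereas that of genes with no shared stretch was 0.29 and 0.34. The total RNA was sequenced with single-end reads.

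Most cytosolic ribosomal protein genes, which have many processed pseudogenes, were of this kind. Of 79 genes 47 were lower and 6 higher (median -1.78, -1.24 with the single-end run alone and -2.63 with the paired-end run alone). Only 6 of them had under 10% of shared sequence, and of these 3 were higher and 1 lower (median 0.98). Rpl8 was at 2083, 2057 and 1995 CPM in total RNA against 779, 766 and 711 in 4sU RNA (1.44, 6.49% shared) and Rps3 at 1733, 1777 and 1718 against 703, 749 and 722 (1.27, 2.96% shared). Rps15a was the lower one (-1.53, 6.37% shared). Across the 79 genes the log2 ratio and the shared percent were related with rho of -0.54, a description in which neighbouring points share libraries. Rps29, at the bottom of the list, was at 0.667, 2.36 and 0.547 CPM against 111, 111 and 109 (-6.49, 35.8% shared, and -7.43 without WT 2).

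Common reference genes were among those with much shared sequence. Gapdh, the glycolytic dehydrogenase, was at 4.83, 4.13 and 5.20 CPM in total RNA and at 428, 423 and 372 in 4sU RNA (-6.42, 82.5% shared), with a log2 ratio of -4.17 from the single-end 4sU run alone and -7.55 from the paired-end run alone. Actg1, gamma-actin, was at 3.67, 2.95 and 3.28 CPM against 489, 450.5 and 467 (-7.14, 55.9% shared), with -4.74 and -8.30 from the separate runs. Whether shared sequence accounts for the ratio of any single gene was not tested. Without the genes that share 10% or more of their 50-base stretches, 2257 of 11999 genes were higher and 3079 lower.

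**Figure D5:**
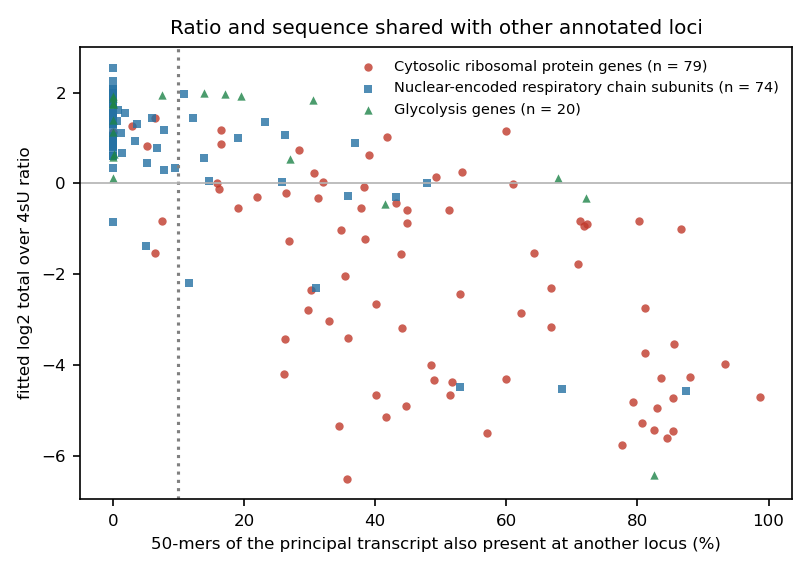
Fitted log2 total over 4sU ratio (y axis) against the percent of 50-base stretches of the principal transcript also present at another locus (x axis) for cytosolic ribosomal protein, respiratory chain and glycolysis genes. Genes left of the dotted line at 10% are mostly above 0, and the lowest points lie to its right.

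Mitochondrially encoded genes took 0.703 to 0.764% of the total RNA counts and 10.8 to 14.2% of the 4sU counts. All 7 tested protein-coding members were lower, with a median log2 ratio of -5.18. mt-Nd1, a complex I subunit, was at 973, 1050 and 970 CPM in total RNA and 32710, 43155 and 32676 in 4sU RNA (-5.17). mt-Co1, a complex IV subunit, was nearest to the nuclear genes with 4372, 4619 and 4241 CPM against 22197, 25613 and 20393 (-2.36, 51.1% shared). Of the 74 nuclear genes of the same complexes, above, 41 were higher, 27 not called and 6 lower. The labels name a ribosomal RNA depletion step for the total RNA, and whether the 4sU RNA was depleted is not given in the sources used here. The part of that step in these ratios, and in those of Lars2 and the small RNA genes described next, was not tested, so they are given as values and not as turnover.

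The lowest ratio of a protein-coding gene was that of Lars2, the mitochondrial leucyl-tRNA synthetase: 29.8, 36.8 and 28.7 CPM in total RNA against 39666, 31183 and 31345 in 4sU RNA (-10.05). Gm15564, an antisense gene, was at 5.50, 10.3 and 4.38 CPM against 6471, 5096 and 4817 (-9.65). In every culture their 4sU value was far above the total RNA value, and their shared sequence was 0.08% and 0.37%. Several genes annotated as microRNA had a like excess: Gm24187 had 1, 0 and 0 counts in total RNA and 3822, 3218 and 3272 in 4sU RNA, at least 2638-fold lower in total RNA when 3 counts per library are taken as the limit of detection, and mt-Tf, the mitochondrial phenylalanine tRNA, had 0, 0 and 0 against 305, 415 and 360 counts, at least 275-fold lower. Mature microRNAs are too short for these libraries. The counts are those of reads over the annotated loci, and which RNA these reads came from was not tested.

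Long noncoding genes were mostly low. Of 1250 genes of the long noncoding types 1167 were lower and 9 higher (median -3.22). For 990 of them only the 4sU libraries reached the filter, and such genes had to differ. Among the 244 that reached 3 CPM in all libraries of both kinds 182 were lower and 3 higher (median -2.26). A slow processing of these RNAs and a fast decay cannot be told apart by the ratio.

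Among 20 long noncoding genes with a named function 11 were lower and 1 higher (median -1.79). Of the 17 at 3 CPM in all libraries of both kinds 9 were lower (median -1.72), and H19 was not among the 17. Neat1, the scaffold of paraspeckles, was at 67.0, 66.0 and 62.9 CPM in total RNA against 609, 614 and 497 in 4sU RNA (-3.13, SE 0.0697). Tug1 was at -1.87 and Dancr, the lowest, at -4.38 (11.7, 9.74 and 11.8 CPM against 239, 244 and 211). Malat1, an abundant RNA of nuclear speckles, was at 3126, 3060 and 2964 CPM against 2343, 3067 and 2088 (0.31, SE 0.0615) and its libraries overlapped. H19, an imprinted RNA, was the higher one (2.01, SE 0.481, and 2.87 without WT 2) on 4.00 to 5.02 CPM of total RNA. A list of 20 host genes of small nucleolar RNAs (snoRNAs) and other noncoding genes had 14 lower and 3 higher, the latter being Terc, Rmrp and Rpph1, described next (median -3.07). Gas5, whose translated exons expose it to nonsense-mediated decay while its introns release snoRNAs, was at 267, 296 and 294 CPM against 2404, 2473 and 2314 (-3.07), and Snhg12 was at 63.7, 53.7 and 53.5 against 861, 840 and 767 (-3.85).

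Several structured RNAs that work within ribonucleoproteins had high ratios. All 3 genes annotated as ribozymes were higher. Rmrp, the RNA of the RNase MRP enzyme, was at 13310, 11596 and 11059 CPM in total RNA against 1988, 2052 and 2342 in 4sU RNA (2.49), and Rpph1, the RNA of RNase P, at 14181, 13805 and 13084 against 2505, 2684 and 2947 (2.34). Terc, the telomerase RNA, was at 87.7, 76.3 and 74.2 CPM against 18.6, 10.7 and 10.9 (2.59), and Rny3, a Y RNA, at 71.0, 49.0 and 56.1 against 5.18, 13.96 and 8.42 (2.62). The highest ratios of all named genes were those of 2 Cajal body RNAs, which guide modification of spliceosomal RNAs: Gm25395 (3.47, SE 0.162) and Scarna6 (3.43, SE 0.197). Of 8 genes of that type 5 were higher and 1 lower. snoRNA genes, 196 in all, went the other way with 166 lower and 10 higher, and among the 97 present in both kinds of library 73 were lower (median -2.31). A snoRNA lies within an intron of its host, and reads of the unspliced host over the snoRNA count for the snoRNA gene.

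Over 11379 protein-coding genes Spearman's rho was 0.42 with exon number (0.40 to 0.43 in the alternatives tried), 0.27 with intron length, 0.15 with coding length, -0.15 with 3′ UTR length, 0.13 with 5′ UTR GC content and -0.02 with transcript length. The genes share libraries and many features, so these values are descriptions. In 309 single-exon genes the median log2 ratio was -1.47, with 208 lower and 1 higher. It was -0.52 in 2823 genes with 2 to 5 exons, 0.23 in 3363 with 6 to 10, 0.49 in 3309 with 11 to 20 and 0.75 in 1575 with more than 20. In the last group 39.0% were higher and 2.92% lower. In 5 equal groups by 3′ UTR length, from the shortest to the longest, the medians were 0.48, 0.37, 0.23, 0.12 and -0.06. The count of T in the transcript, the letter at which 4sU is built in, was related with rho of -0.04, and the fraction of T with -0.09.

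Short 3′ UTR motifs known for binding decay factors were compared next, with letters searched on the sense strand of the UTR in 11255 genes. AU-rich elements of the form TATTTAT, which holds the shorter ATTTA, bind tristetraprolin and its relatives. The microRNAs of the ESC-enriched miR-290 and miR-302 clusters share one seed and miR-17-5p a shifted one, whereas let-7 is scarce in ESCs and is shown for contrast. They are printed with the seed, bases 2 to 8, in capitals. The sequences are from RefSeq.
mmu-miR-291a-3p: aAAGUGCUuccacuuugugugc
mmu-miR-294-3p: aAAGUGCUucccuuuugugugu
mmu-miR-302b-3p: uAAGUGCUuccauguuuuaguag
mmu-miR-17-5p: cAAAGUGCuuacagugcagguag
mmu-let-7a-5p: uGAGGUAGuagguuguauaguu

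The 7 bases of the first seed pair with AGCACTT, and followed by an A this gives the 8-base site AGCACTTA. Sites with this motif in named genes of low ratio are shown in the sense direction with the motif in capitals. Each stretch shown has 8 flanking bases on either side, and the positions are those of the whole stretch. In Cdkn1a it lies at chr17:29100492-29100515 (plus strand), in Btg1 at chr10:96619137-96619160 (plus) and in Lats2 at chr14:57691078-57691101 (minus), all GRCm38 and all in the 3′ UTR.
Cdkn1a: ggtgtcaaAGCACTTAgtgggtct
Btg1: ttttacctAGCACTTAaaatgtat
Lats2: atggaaagAGCACTTAttttgtgg

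The AU-rich element TATTTAT is shown for Zfp703 at chr8:26980220-26980242 (plus), Hnrnpa1 at chr15:103244688-103244710 (plus) and Zfp36 at chr7:28376969-28376991 (minus). Zfp36 holds 3 copies in its 3′ UTR of 774 bases, and the one shown starts at base 575.
Zfp703: ggactgtgTATTTATttactata
Hnrnpa1: ttggaattTATTTATggttgctt
Zfp36: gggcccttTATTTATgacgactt

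Genes with a motif had lower ratios than genes without it, and part of that difference went with UTR length. The 3279 genes with TATTTAT (29.1% of those tested, 26.1% of all 3′ UTRs) had a median log2 ratio of 0.03 against 0.31, a difference of -0.28, and the mean difference within 5 bins of UTR length was -0.14. The 387 genes with AGCACTTA (3.44%, and 2.73% of all 3′ UTRs) had a median of -0.20 against 0.25, a difference of -0.45 and of -0.24 within bins, where the bins ran from -0.50 to 0.13. For the miR-17 site GCACTTTA the difference was -0.32 and -0.15 within bins, and for the let-7 site CTACCTCA -0.18 and -0.10, with bins from -0.45 (29 genes with the site) to 0.29 (92 genes). The 6-base cores of the sites gave differences of -0.34 for miR-294 (-0.18 within bins), -0.20 for miR-17 (-0.02) and -0.15 for let-7, where the mean within bins was positive (0.06). The short element ATTTA, present in 7679 genes, had a difference of -0.28 that shrank to -0.04 within bins. These letters are matches only, and no site was tested for use.

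Genes that the study followed by other assays spread over the range. Of 6 genes of its actinomycin D time course 2 were lower, Ccn1 (-3.31) and Amotl2 (-1.99), and Esrrb (-0.54), Pgap1 (-0.47) and Impact (0.90) were not called. Among the genes whose 3′ UTRs it cloned into reporters Lamb2, a laminin subunit (2.33), Tex14 (1.57) and Col4a2, a collagen chain (1.28), were higher. Lrig3 (-0.73) and Cry1 (0.61) were not called.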

How the data were processed

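The authors trimmed reads with Cutadapt 1.14, aligned them to the mouse genome (mm10) with STAR 2.5.3a, kept uniquely mapped reads and counted exonic reads per gene with featureCounts 1.5.3 on the reverse strand against the Gencode M14 basic annotation without ribosomal RNA genes. The deposited values are raw read counts for the total RNA and the single-end 4sU run, and counts of fragments for the paired-end 4sU run. Per the labels, both kinds of library came from one lysate per culture, the total RNA was depleted of ribosomal RNA and the labelled RNA was pulled down on streptavidin beads. The 12 count columns of knockout samples were not used, and 92 spike-in rows, which hold 0 counts in these samples, were left out, leaving 51467 genes.

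Counts of the 2 runs of a 4sU library were summed, giving 3 libraries against 3. Genes that reached 3 CPM in 3 or more libraries were fitted with edgeR 4.0.16 (robust quasi-likelihood, TMM factors) in R 4.3.3 with the terms culture and assay. Adjusted p-values cover all 13251 genes. The culture block follows from the shared lysate, although the correlations of same-numbered deviations were low (0.0168, 0.00629 and 0.0427). The labels do not say whether the cultures were grown independently, so the p-values measure the spread between these samples. Per-culture ratios add 0.5 CPM to each value. On simulated counts for the 13251 genes, 200 of 200 genes planted at a log2 size of 2 were called, and 3 unchanged genes. All other genes had the same mean in both assays there, unlike in the real data. The simulation therefore cannot show how the scaling behaves when many genes differ, mostly to one side.

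Transcript features, shared 50-base stretches and UTR motifs were taken from the principal transcripts of Gencode M21 (GRCm38), and an unannotated copy is not seen by this measure. The gene lists and the genes examined were chosen with earlier results of these data known. Named genes are the 10 highest protein-coding genes with a mean of at least 10 CPM, Lars2, Hist1h4n, Actg1, Rps29 and Gapdh of the 10 lowest, the extremes among noncoding genes, members at the ends of each list, any member of a list of 15 or fewer, and the genes the study cloned or followed by time course. Other list members, and Gm15564, were named after their values were seen. Alternatives were no block, DESeq2 1.42.0, limma-voom 3.58.1, other scalings, filters and thresholds, each 4sU run alone, protein-coding genes only and each culture left out. Leaving out small noncoding, mitochondrial and histone genes, or genes with shared sequence, was added after the data were seen. Python 3.11.15 with pandas 2.3.3 and scipy 1.17.1 was used for summaries. Counting intervals and limits of detection cover counting error only. Some genes and 1 motif examined are not reported here.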

Additional observations from a re-analysis of the deposited data

How the results depend on the processing

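The counts of 2615 higher and 3525 lower genes kept within 1.5 times under DESeq2, limma-voom, all scalings, each 4sU run alone, protein-coding genes only and the removal of small noncoding or shared-sequence genes. Without the pairing of libraries by culture (no replicate block) they were 2611 and 3521. With 1 culture left out at a time they ran from 2683 to 2703 higher and from 3617 to 3670 lower. With a mean of at least 10 CPM, which tests 9882 genes, they were 1708 and 2211. Without a filter 3965 of 27769 genes were higher and 4760 lower, and by the adjusted p alone 5385 were higher and 5335 lower. Higher genes were 42.6% of all calls, 48.5% with library size scaling and 33.8% with upper quartile scaling. List medians relative to all genes moved by at most 0.01 under other scalings, by -0.26 to 0.69 with the single-end 4sU run alone, by -0.85 to 0.28 with the paired-end run alone, by -0.37 to 0.18 with a mean of at least 10 CPM, by -0.27 to 1.89 with protein-coding genes only, which drops members of the noncoding lists, and by -0.66 to 0.42 with 1 culture left out. Among the genes named, 0 reversed their direction, while near the log2 threshold of 1 the calls of Ezh2, Mga and Lefty1 were lost under some alternatives and those of Impact, Insig1 and Srsf9 appeared. The 4sU libraries, the shallower ones, limit the precision of genes with a high ratio.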
